A study of Mus musculus with 10 samples.

Results

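Levels of 10 genes of glucocorticoid signalling were read in the gene counts of mouse hearts and cultured macrophages, out of 55357 genes in the tables. The genes were chosen by name, with earlier results of these data known. They are Nr3c1, the glucocorticoid receptor, Hsd11b1, the enzyme that makes its ligand inside cells, and a set of glucocorticoid-responsive genes. That set is Tsc22d3, Fkbp5, Klf9, Klf15, Per1, Zbtb16, Sgk1 and Dusp1. All hearts came from Cd163-/- mice on a C57BL/6 background, which lack the macrophage scavenger receptor CD163. The series describes male mice that were 8 weeks old at transverse aortic constriction, a ligature on the aorta that puts the left ventricle under pressure overload. The heart groups were IL-10 (n = 3), injected subcutaneously with 50 µg/kg/day on set days between day 0 and day 27, and saline (n = 3). Neither the surgery nor the day of collection is labelled for a single heart, and no wild-type or sham-operated heart was analysed here. The macrophage groups were Cd163-/- (n = 2) and littermate wild type (n = 2). These cells were elicited in the peritoneal cavity with thioglycolate, an irritant, and kept as the adherent fraction. Both macrophage groups received 100 nM dexamethasone, a synthetic glucocorticoid, for 48 h, so no untreated macrophage shows what the steroid itself did. The Cd163 deletion was not described as limited to any cell type.

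Glucocorticoids enter cells and bind their receptor, which is held in the cytoplasm by the Hsp90 chaperone machine, and the loaded receptor moves to the nucleus and changes transcription. Corticosterone, the main glucocorticoid of mice, circulates beside an inert keto form that Hsd11b1 reduces back to the active steroid inside the cell. Several early targets feed back on the pathway or on inflammation: Fkbp5 lowers the receptor's affinity for its ligand, Tsc22d3 (also called GILZ) restrains inflammatory transcription factors, and Dusp1 switches off MAP kinases. In the heart, the receptor and Klf15 are known for effects on cardiomyocyte growth and metabolism, and in macrophages glucocorticoids are known to lower inflammatory cytokine expression.

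Total counts ran from 14.1 to 14.8 M in IL-10 hearts and from 13.5 to 14.9 M in saline hearts (M for mega), and from 17.2 to 18.6 M in Cd163-/- macrophages and from 16.7 to 17.9 M in wild-type macrophages. The unit of level is CPM, counts per M after TMM scaling of each library, and the 2 tables were scaled separately. The targeted gene, Cd163, had 9 and 14 counts in Cd163-/- macrophages, against 352 and 205 counts in wild-type macrophages; the labels do not state which exons were removed. The Cd163-/- hearts still held 37, 43 and 34 Cd163 counts with IL-10 and 45, 47 and 57 counts with saline. Cardiomyocyte markers led the heart libraries, with a summed level of 30941 to 36362 CPM for 8 markers in IL-10 hearts and 36820 to 44743 CPM in saline hearts. Of these markers, Actc1 alone had means of 10200 CPM with IL-10 and 17675 CPM with saline. Macrophage markers led the cultures, with a summed 23515 to 24662 CPM for 10 markers in Cd163-/- macrophages and 26054 to 30870 CPM in wild-type macrophages. Most of this sum was 1 gene, Lyz2, with means of 16910 CPM in Cd163-/- and 21006 CPM in wild-type macrophages. The labels do not say whether replicates are different animals or culture dishes; a p-value here therefore covers the spread among libraries, which could be technical. In bulk RNA, fewer cells of a type and less RNA per cell cannot be told apart.

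The promoter windows of the targets were read first, because the receptor acts through a short palindrome in DNA. RefSeq windows of 300 bases (250 before to 50 after an annotated start, GRCm38.p6) were matched for 8 of the 10 genes, 16 windows in all. Nr3c1 had none because windows on its chromosome, 18, were left out for the 10 genes, and no window was matched for Zbtb16. Both strands were searched for a single arm of it, AGAACA, for the full element, in which that arm and its reverse complement stand 3 bases apart, and for a looser core, GNACA and its reverse complement at the same distance. The E-box CACGTG, bound by clock factors, and the cAMP response element TGACGTCA were searched too. Of 32851 windows of this length, 19.0% held a single arm, 0.00913% (3 windows) the full element, 0.475% the looser core, 7.15% the E-box and 1.79% the cAMP response element. The full element was found in 1 window of Sgk1 and in windows of Acnat2 and Gm35041. The 6 windows below are shown because they hold the Sgk1 element, the single arm of Tsc22d3, and the E-boxes and cAMP response element of Fkbp5, Klf15, Per1 and Dusp1. Capitals mark the matches, and each is written 5′ to 3′ on the strand of its gene.
Sgk1: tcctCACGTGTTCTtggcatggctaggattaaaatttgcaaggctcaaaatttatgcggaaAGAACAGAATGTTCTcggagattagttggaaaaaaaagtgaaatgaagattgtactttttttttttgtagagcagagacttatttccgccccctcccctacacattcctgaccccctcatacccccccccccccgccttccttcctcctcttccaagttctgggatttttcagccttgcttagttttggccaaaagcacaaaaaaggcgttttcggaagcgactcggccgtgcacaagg
Tsc22d3: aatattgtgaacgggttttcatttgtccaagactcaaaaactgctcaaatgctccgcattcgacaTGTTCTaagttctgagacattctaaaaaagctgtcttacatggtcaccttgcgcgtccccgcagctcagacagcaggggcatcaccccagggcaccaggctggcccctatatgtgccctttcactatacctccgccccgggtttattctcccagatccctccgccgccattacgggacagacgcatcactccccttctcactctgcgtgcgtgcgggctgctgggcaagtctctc
Fkbp5: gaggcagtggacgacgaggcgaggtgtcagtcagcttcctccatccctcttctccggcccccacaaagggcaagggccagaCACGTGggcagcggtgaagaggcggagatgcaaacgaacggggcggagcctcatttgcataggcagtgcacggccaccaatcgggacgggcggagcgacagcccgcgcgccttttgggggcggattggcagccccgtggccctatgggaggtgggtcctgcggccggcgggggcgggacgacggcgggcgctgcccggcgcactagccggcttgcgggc
Klf15: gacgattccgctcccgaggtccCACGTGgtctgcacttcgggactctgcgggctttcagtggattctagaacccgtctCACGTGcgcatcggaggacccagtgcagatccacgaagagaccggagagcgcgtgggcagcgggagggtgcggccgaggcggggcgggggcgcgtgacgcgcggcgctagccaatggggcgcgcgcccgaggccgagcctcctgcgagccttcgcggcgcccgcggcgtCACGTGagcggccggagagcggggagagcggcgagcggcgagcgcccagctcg
Per1: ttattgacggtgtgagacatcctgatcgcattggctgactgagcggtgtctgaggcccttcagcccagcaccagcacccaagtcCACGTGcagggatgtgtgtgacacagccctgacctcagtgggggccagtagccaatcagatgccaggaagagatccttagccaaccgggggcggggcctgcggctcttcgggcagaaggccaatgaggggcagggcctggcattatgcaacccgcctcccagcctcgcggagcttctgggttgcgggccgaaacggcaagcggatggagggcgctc
Dusp1: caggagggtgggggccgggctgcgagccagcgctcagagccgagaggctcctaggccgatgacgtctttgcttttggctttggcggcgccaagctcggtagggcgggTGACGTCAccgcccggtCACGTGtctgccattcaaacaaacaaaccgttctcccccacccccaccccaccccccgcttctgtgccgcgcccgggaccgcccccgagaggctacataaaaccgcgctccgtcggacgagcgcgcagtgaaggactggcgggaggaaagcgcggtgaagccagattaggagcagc

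The Sgk1 window (chr10:21993640-21993939, plus strand) begins its full element 189 bases before the start. It also holds a single arm 242 bases before the start that overlaps the end of an E-box, which begins 246 bases before it. The element's match also counts as the looser core and as 2 single arms. Of the other 5 Sgk1 windows, 2 hold a single arm alone, 195 and 13 bases before their starts. The Tsc22d3 window (chrX:140600473-140600772, minus strand) has 1 single arm, 185 bases before the start, and its other 2 windows have none of the motifs. The Fkbp5 window (chr17:28486100-28486399, minus strand) has an E-box 169 bases before the start. The Klf15 window (chr6:90462326-90462625, plus strand) has E-boxes 228, 172 and 3 bases before the start. The Per1 window (chr11:69098699-69098998, plus strand) has an E-box 166 bases before the start. The Dusp1 window (chr17:26508423-26508722, minus strand) has the cAMP response element 143 and an E-box 126 bases before the start. These letters are not in the Hsd11b1 and Klf9 windows, and a match is a description, not a bound site. Sequence outside the windows was not searched, so a window without a match does not show that its gene lacks the motif. Gene-level counts do not say which start was used.

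The first comparison asked how the 10 genes stood in Cd163-/- hearts given IL-10, against saline. All 10 passed the filter on low counts, and 5 rose: Hsd11b1, Tsc22d3, Klf15, Klf9 and Dusp1. Calls here are an adjusted p under 0.05 in edgeR's quasi-likelihood test, with Benjamini-Hochberg adjustment over all 13718 genes tested. Of all these genes 6.86% were called higher and 6.70% lower, or 13.6% together. The receptor Nr3c1, Fkbp5, Per1, Zbtb16 and Sgk1 were not called. None of the 10 fell (0 by edgeR, 0 at an unadjusted p under 0.05, 0 by DESeq2 and 0 by limma-voom). At an unadjusted p under 0.05, 8 of the 10 were higher. Of all 13718 tested genes, 3877 passed that threshold in either direction. The median log2 fold change of the 10 was 0.58, beside -0.01 over all tested genes. In 5 of the 10 genes the groups did not overlap, as in 31.6% of all tested genes.

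**Figure D1:**
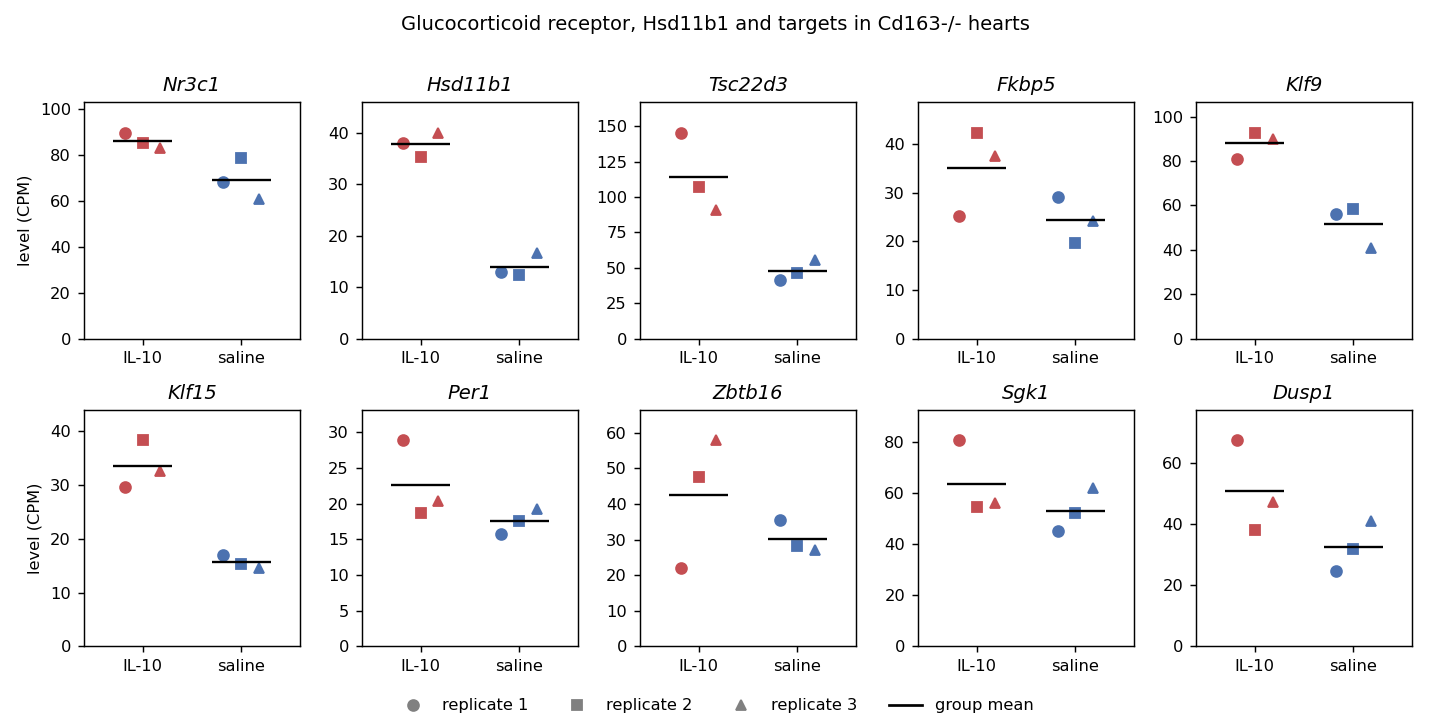
Level in CPM (vertical axis, from 0) of each of the 10 genes in the IL-10 hearts (red, left) and saline hearts (blue, right); marker shapes are replicate numbers and bars are group means (n = 3 each). Hsd11b1, Tsc22d3, Klf9, Klf15 and Nr3c1 do not overlap between groups, and IL-10 replicate 1 is the highest of the 6 hearts for Nr3c1, Tsc22d3, Per1, Sgk1 and Dusp1 and the lowest for Zbtb16.

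Hsd11b1 (ENSMUSG00000016194; GENCODE M21 on GRCm38, chromosome 1, 193221634 to 193264075, minus strand) had the highest fold change of the 10. Its level was 38.0, 35.3 and 40.1 CPM in IL-10 hearts, against 13.0, 12.3 and 16.7 CPM in saline hearts. Every IL-10 heart lay above every saline heart, and the means were 37.8 ± 2.41 CPM with IL-10 and 14.0 ± 2.36 CPM with saline (SD, n = 3 each). The fold was 2.69 (log2 1.43, SE 0.13; edgeR adjusted p = 1.09e-05). The gene was called in all 15 alternatives run, at log2 fold changes of 1.35 to 1.58. H6pd, which supplies the enzyme's cofactor NADPH, had 35.8 CPM with IL-10 and 32.2 CPM with saline and was not called (log2 0.15, edgeR adjusted p = 0.549).

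The receptor gene Nr3c1 (ENSMUSG00000024431, chromosome 18, 39410545 to 39519421, minus strand) differed far less. It had 89.6, 84.9 and 82.8 CPM in IL-10 hearts, against 68.0, 78.5 and 60.8 CPM in saline hearts. The groups did not overlap, but the log2 fold change of 0.31 (SE 0.11) was not called, with an edgeR adjusted p = 0.0815. Without saline replicate 2 it was called, at log2 0.41 and adjusted p = 0.0333.

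Tsc22d3 (ENSMUSG00000031431, chromosome X, 140539528 to 140600659, minus strand) was the most expressed of the 10 in IL-10 hearts per kb of exon. It had 145, 107 and 90.7 CPM in IL-10 hearts, against 41.6, 46.4 and 55.8 CPM in saline hearts. No heart crossed over, and the spread was wider with IL-10 (114 ± 28.2 CPM) than with saline (47.9 ± 7.22 CPM; SD, n = 3 each). The log2 fold change was 1.25 (SE 0.16, fold 2.38), with an edgeR adjusted p = 0.000105. It was called in all 15 alternatives, including the runs that left out IL-10 replicate 1.

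Both Krüppel-like factors rose. Klf15 (ENSMUSG00000030087, chromosome 6, 90462576 to 90475238, plus strand), a regulator of amino acid and lipid use in heart and muscle, had 29.6, 38.2 and 32.5 CPM in IL-10 hearts and 17.0, 15.3 and 14.6 CPM in saline hearts. Its log2 fold change was 1.10 (SE 0.13, fold 2.14), with an edgeR adjusted p = 7.68e-05. Klf9 (ENSMUSG00000033863, chromosome 19, 23141226 to 23168134, plus strand), a repressor of transcription, had 81.1, 92.8 and 89.9 CPM with IL-10 and 56.1, 58.2 and 40.7 CPM with saline. Its log2 fold change was 0.77 (SE 0.13, fold 1.70; edgeR adjusted p = 0.00118). Neither gene overlapped between groups, and both were called in all 15 alternatives.

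Fkbp5 (ENSMUSG00000024222, chromosome 17, 28399094 to 28517527, minus strand), the co-chaperone, and Zbtb16 (ENSMUSG00000066687, chromosome 9, 48654297 to 48836222, minus strand), a zinc-finger repressor also called PLZF, shared an outlying library. Fkbp5 had 25.3, 42.4 and 37.6 CPM in IL-10 hearts, against 29.2, 19.6 and 24.2 CPM in saline hearts. IL-10 replicate 1 fell below saline replicate 1, and the log2 fold change of 0.53 (SE 0.17) was not called (edgeR adjusted p = 0.0554). Without IL-10 replicate 1 it was 0.72 and called (adjusted p = 0.00709), and without saline replicate 1 it was 0.68 and called (adjusted p = 0.0363). DESeq2 also called Fkbp5, with an adjusted p = 0.041. Zbtb16 had 22.0, 47.5 and 57.8 CPM in IL-10 hearts, against 35.4, 28.1 and 27.0 CPM in saline hearts. The same IL-10 replicate 1 was the lowest of all 6 hearts, the other two IL-10 hearts were the highest, and the log2 fold change was 0.49 (SE 0.23, edgeR adjusted p = 0.18). Without IL-10 replicate 1 it was 0.81, with an adjusted p = 0.0021. Both genes were also called when no filter on low counts was applied, at adjusted p = 0.00165 for Fkbp5 and 0.00264 for Zbtb16.

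The 3 targets known also as fast stress-responsive genes showed the opposite placing of that library, as did Nr3c1 and Tsc22d3. Dusp1 (ENSMUSG00000024190, chromosome 17, 26505590 to 26562128, minus strand) had 67.3, 37.9 and 47.3 CPM in IL-10 hearts, against 24.6, 32.0 and 41.1 CPM in saline hearts. The groups overlapped, and the log2 fold change of 0.64 (SE 0.19) was called at an edgeR adjusted p = 0.035. This call was lost without IL-10 replicate 1 (log2 0.40, adjusted p = 0.174), without saline replicate 1 (0.48, 0.149) and without saline replicate 2 (0.63, 0.0633). It was also lost with library size alone as the scaling (adjusted p = 0.0911). Dusp1 shares 11 exonic bases with the antisense gene Ergic1, and the library kit does not mark strand.

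Per1 (ENSMUSG00000020893, chromosome 11, 69095217 to 69109960, plus strand), a repressor in the circadian clock, had 28.8, 18.6 and 20.3 CPM in IL-10 hearts, against 15.7, 17.5 and 19.2 CPM in saline hearts. Sgk1 (ENSMUSG00000019970, chromosome 10, 21882184 to 21999903, plus strand), a kinase that acts on ion transport, had 80.5, 54.7 and 55.9 CPM with IL-10 and 44.9, 52.0 and 61.9 CPM with saline. Both overlapped between groups and were called in none of the 15 alternatives, with log2 fold changes of 0.37 (SE 0.16, edgeR adjusted p = 0.139) for Per1 and 0.27 (SE 0.15, adjusted p = 0.267) for Sgk1. IL-10 replicate 1 was again the highest heart for both. Immediate early genes, a list of 24 rapidly induced genes such as Fos and Jun, summed to 748.2, 618.2 and 665.8 CPM in IL-10 hearts and 520.3, 471.9 and 663.6 CPM in saline hearts. Their part in the levels of Dusp1, Per1 and Sgk1 was not tested. The labels give no hour of collection, and the 18 clock genes summed to 487.6, 454.8 and 472.5 CPM with IL-10 and 422.5, 470.1 and 409.3 CPM with saline.

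By exon length, the order within a group could be set. In IL-10 hearts Tsc22d3 stood first at 26.3 ± 6.49 CPM per kb of exon (SD, n = 3), above Klf9 at 18.3 ± 1.27 CPM per kb with no overlap. Dusp1, Sgk1, Klf15 and Nr3c1 followed at 15.4, 13.0, 12.0 and 11.2 CPM per kb, and each overlapped the next, as Dusp1 did Klf9. Hsd11b1 had 8.89 ± 0.57 CPM per kb and Zbtb16 8.03 ± 3.49 CPM per kb, whose ranges overlapped, and Per1 and Fkbp5 were lowest at 4.01 and 3.71 CPM per kb. In saline hearts Tsc22d3, Sgk1, Klf9 and Dusp1 had overlapping ranges, with means of 11.04, 10.8, 10.7 and 9.83 CPM per kb, followed by Nr3c1 at 8.99 CPM per kb, which overlapped Dusp1. Zbtb16 and Klf15 came next at 5.71 and 5.59 CPM per kb and overlapped, and Hsd11b1 stood at 3.29 ± 0.56 CPM per kb, within the range of Per1. Fkbp5 was lowest there too, at 2.57 ± 0.51 CPM per kb, and its range overlapped that of Per1 (3.10 ± 0.31 CPM per kb).

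Across the 6 hearts, genes most like 3 of the members were found by the root mean square difference of log2 CPM, each gene centred on its own mean. The nearest to Tsc22d3 were Snai3, Mylk4 and Slc5a1, with differences of 0.135, 0.143 and 0.148 on the log2 scale. The nearest to Fkbp5 were Shox2, Sqor and Slc5a3, at 0.0879, 0.109 and 0.115. Of these, Sqor was called (edgeR adjusted p = 0.0385), while Shox2 (0.462) and Slc5a3 (0.0922) were not. The nearest to Hsd11b1 were A530016L24Rik, Poln and Gfra1, at 0.146, 0.157 and 0.17. These are the closest among all tested genes over only 6 hearts, and shared control was not tested.

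Of 37 tested genes on a list of other glucocorticoid-induced genes, 16 rose in IL-10 hearts, with a median log2 fold change of 0.33. The 4 with the smallest p were Cebpb (37.8 CPM with IL-10, 17.3 CPM with saline, log2 1.13 ± 0.12 SE) and Cebpd (59.6 CPM with IL-10, 28.7 CPM with saline, 1.05 ± 0.15), both C/EBP transcription factors, Irs2 (26.1 CPM with IL-10, 8.04 CPM with saline, 1.69 ± 0.31), an insulin signalling adaptor, and Nfil3 (0.94 ± 0.17), a transcription repressor. Their edgeR adjusted p-values ran from 3.61e-05 for Cebpb to 0.00201 for Nfil3. None of the list fell (0 by edgeR, DESeq2 and limma-voom, 1 at an unadjusted p under 0.05). The count of rises was 8 without IL-10 replicate 2, 10 without saline replicate 1, 9 without saline replicate 3 and 10 with library size alone, and 1 gene fell without saline replicate 2.

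**Figure D2:**
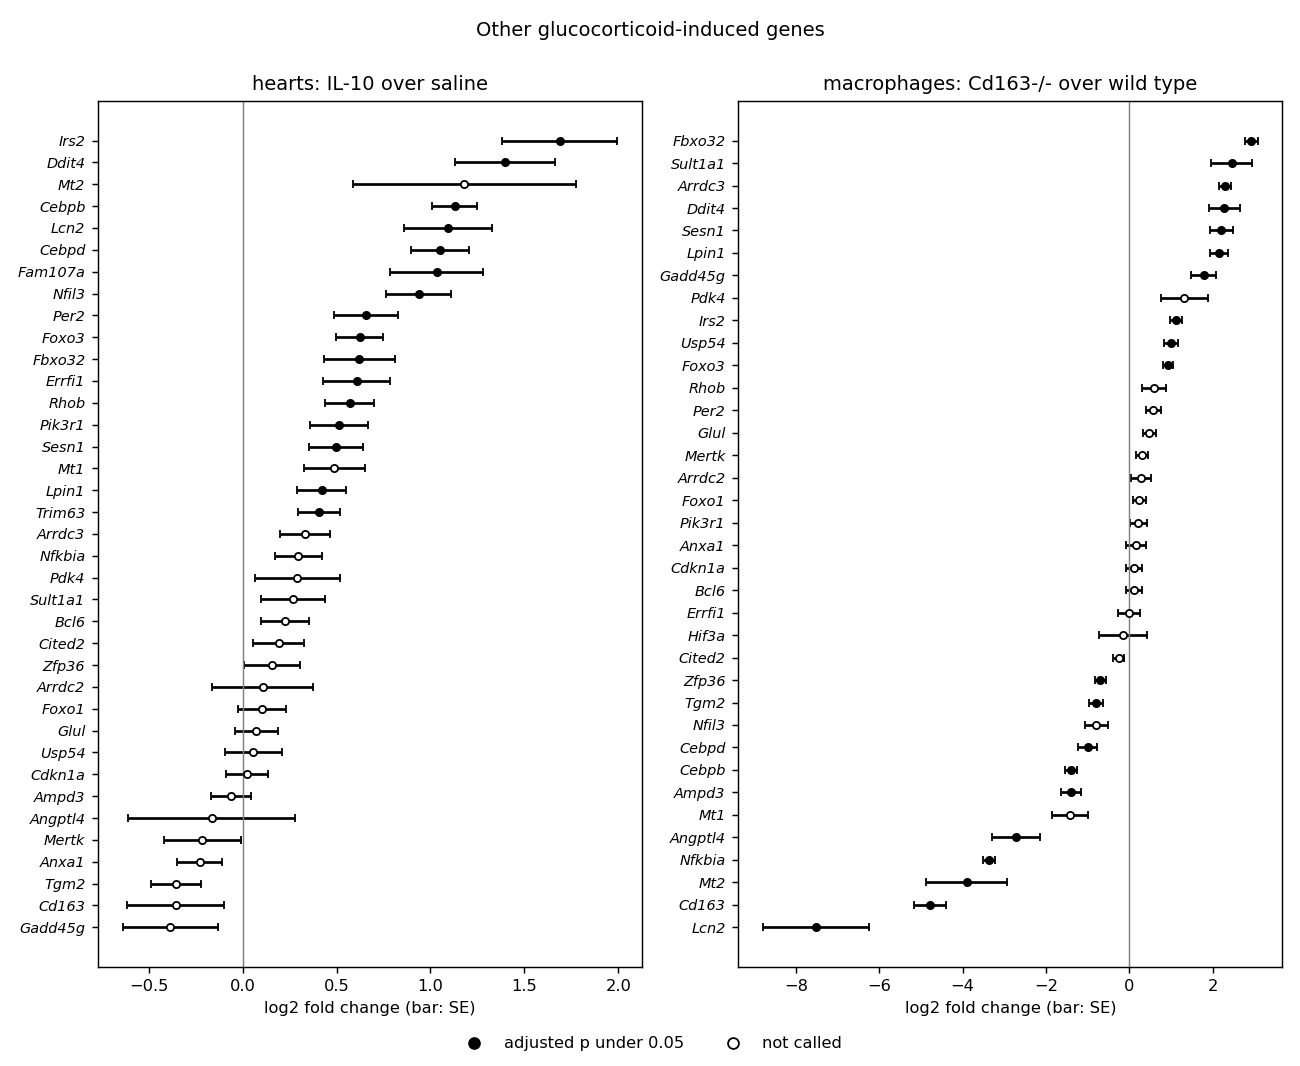
Log2 fold change (horizontal axis, bars are SE) of each tested gene on the list of other glucocorticoid-induced genes, in hearts (left, IL-10 over saline) and in macrophages (right, Cd163-/- over wild type); filled points passed an adjusted p under 0.05. In hearts all 16 filled points lie to the right of 0, and in macrophages 10 lie to the right and 10 to the left; the axes differ in scale.

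Among steroid receptors and steroid enzymes, 1 of 7 tested genes rose, where 6.86% of all tested genes did. The gene that rose was Nr3c2, the mineralocorticoid receptor, which also binds corticosterone, with 11.6 ± 1.71 CPM in IL-10 hearts and 4.46 ± 0.51 CPM in saline hearts (SD, n = 3 each; log2 1.38, SE 0.19, edgeR adjusted p = 0.000216). The list's median was 0.37, and 2 rose without saline replicate 2. Of 20 receptor chaperones and coregulators 4 rose, with a median of 0.08: Fkbp4 (log2 0.47), an immunophilin partner of Hsp90, the Hsp70 cofactors Bag1 (0.42) and Dnaja1 (0.52), and the acetyltransferase Ep300 (0.37), at edgeR adjusted p-values of 0.0137 to 0.0376. That count fell to 2 without IL-10 replicate 1, 1 without IL-10 replicate 2, 0 without saline replicate 1 and 1 without saline replicate 3, and to 2 with upper-quartile scaling and 1 with library size alone. No gene of these 2 lists fell (0 by edgeR, DESeq2 and limma-voom, and 0 at an unadjusted p under 0.05).

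Of 16 tested inflammatory genes that glucocorticoids are known to repress, 1 fell and 1 rose in the hearts. Of all tested genes 6.70% fell and 6.86% rose. Cxcl10, an interferon-induced chemokine, was lower (1.37 CPM with IL-10, 8.35 CPM with saline; log2 -2.60, SE 0.27, edgeR adjusted p = 2.47e-05) and Cxcl1, a neutrophil chemokine, was higher (4.91 CPM with IL-10, 2.27 CPM with saline; log2 1.12, SE 0.35, adjusted p = 0.0413). The Cxcl1 call was lost without IL-10 replicate 2 and without each of the 3 saline replicates, and also by limma-voom, with upper-quartile scaling and with library size alone. The list's median was 0.02.

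Of 18 clock genes 6 rose and 1 fell, with a median of 0.02; Nfil3, Tef, Cry2 and Per2 led at log2 fold changes of 0.94, 0.62, 0.68 and 0.66, and Nfil3 and Per2 are also on the list of other induced genes. Without saline replicate 1 only 3 rose. Of 23 immediate early genes 6 rose and 1 fell, with a median of 0.20, led by Klf4 (log2 0.68), Nr4a3 (0.88), Jun (0.52) and Klf2 (0.64), all of them transcription factors. The 6 became 2 when replicate 1 of either group was left out and 3 when replicate 2 of either group was. The single falls, of Nr1d1 (-0.70) among clock genes and Ier3 (-0.52) among immediate early genes, were each lost in at least 3 of the 6 runs that left out a library: the clock count was 0 without replicate 1 or 2 of either group, and the immediate early count 0 without IL-10 replicate 2, saline replicate 1 or saline replicate 3. The clock fall was also lost by DESeq2 and the immediate early fall by limma-voom, and with no filter on low counts 10 immediate early genes rose. Among relatives of the targets, 1 of 9 tested Klf and Sp genes rose, where 6.86% of all tested genes did. It was Klf13 (log2 0.40), and the list's median was 0.15. That call was lost without IL-10 replicate 2 or 3, without saline replicate 1 or 2 and with library size alone. Of 16 tested Tsc22d, Sgk, Dusp and Fkbp relatives, 2 rose (Tsc22d4, 0.36; Dusp16, 0.38) and 2 fell (Dusp4, -1.64; Fkbp10, -0.66), with a median of -0.02. Both rises were lost in 5 of the 6 runs that left out a library, all but the one without IL-10 replicate 3, and under upper-quartile scaling and library size alone; 1 of them remained by DESeq2, by limma-voom and with no filter. The falls numbered 0 without IL-10 replicate 2 or saline replicate 1, and 1 without IL-10 replicate 1 or saline replicate 3.

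Markers of the cell types in the tissue are given beside these values. Of 8 cardiomyocyte markers 1 fell, Actc1 (log2 -0.79), and the other 7 were not called. The log2 fold change was above 0 in 5 of the 8. Of 8 fibroblast markers 2 rose and 3 fell. They summed to 1850 to 2151 CPM in IL-10 hearts and 1875 to 2039 CPM in saline hearts. The rises were Dcn (log2 0.47), the largest part of the sum, and Fbln1 (0.59). The falls were Col1a1 (-1.34), Col1a2 (-1.12) and Pdgfrb (-0.49). Endothelial markers summed to 545.5 to 623.6 CPM with IL-10 and 618.9 to 743.3 CPM with saline, and 2 of 8 fell. Of 5 tested smooth muscle and pericyte markers 2 fell, Acta2 (log2 -1.02) and Cspg4 (-0.89). The list summed to 666.6 to 818.7 CPM with IL-10 and 633.6 to 790.2 CPM with saline. Most of this sum was Rgs5, which was not called, with means of 635 CPM with IL-10 and 527 CPM with saline. Macrophage markers summed to 818.2 to 917.8 CPM with IL-10 and 579.3 to 998.3 CPM with saline, and 1 of 10 fell. The 6 B cell markers summed to 15.8 to 18.5 CPM with IL-10 and 10.2 to 12.4 CPM with saline. Most of this sum was 1 gene, Ebf1, with means of 15.3 CPM with IL-10 and 10.3 CPM with saline. It was the only 1 of the 6 that was tested, and it rose (log2 0.57). Adipocyte markers summed to 0.84 to 4.07 CPM with IL-10 and 1.61 to 3.07 CPM with saline, with Lep at 0 in all hearts. The part of the cell mix in the 5 rises was not tested.

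The second comparison set Cd163-/- against wild-type macrophages, all under dexamethasone. Tsc22d3, Fkbp5, Klf9 and Zbtb16 rose in Cd163-/- cells, while the receptor Nr3c1 and Dusp1 fell. Klf15, Per1 and Sgk1 were not called, and Hsd11b1 did not pass the filter on low counts. Of the 9 genes tested, 4 were thus higher and 2 lower, where 13.1% and 13.3% of all 13861 tested genes were called in these directions, or 26.4% together. The groups did not overlap in any of the 9, but with 2 libraries each this held for 69.4% of all tested genes. The median log2 fold change of the 9 was 0.47, beside 0.01 over all tested genes. Scaling by upper quartile moved the median of all genes to 0.13, and library size alone to 0.19.

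**Figure D3:**
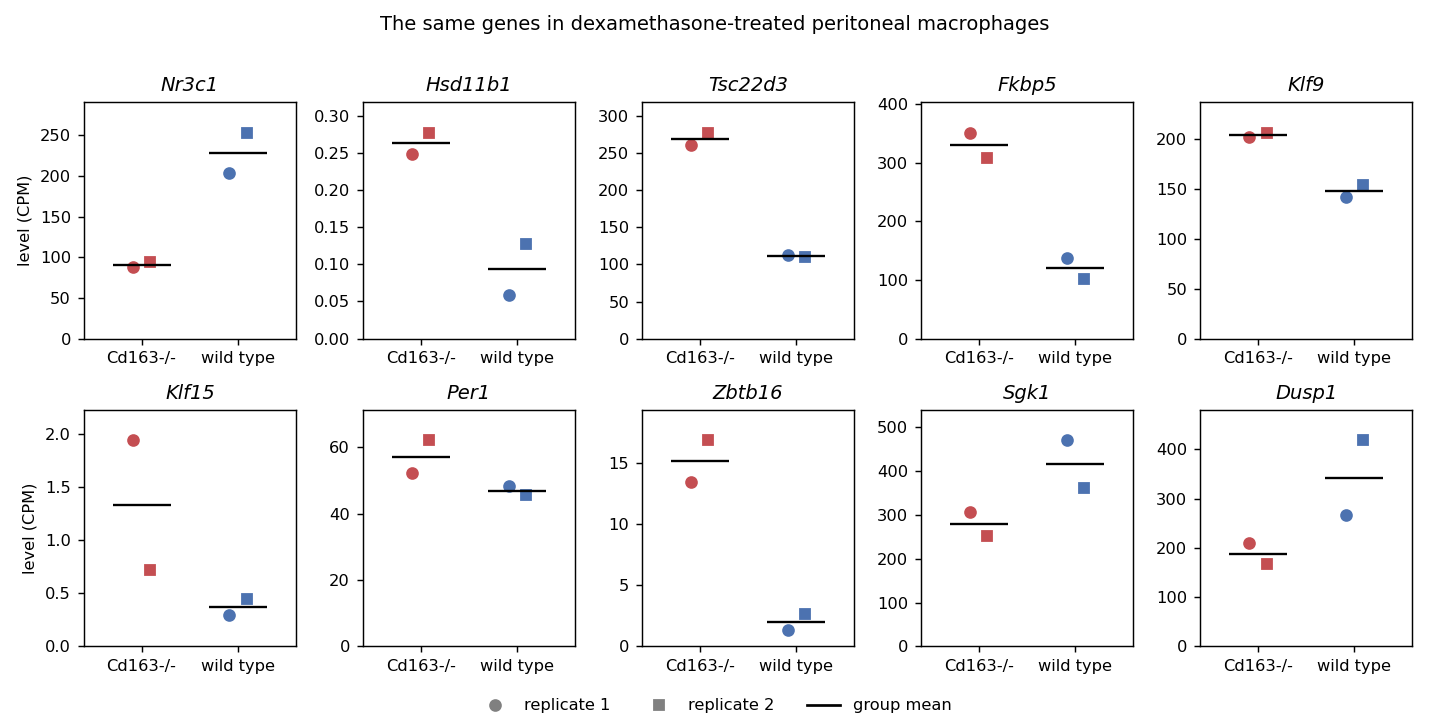
Level in CPM (vertical axis, from 0) of each of the 10 genes in dexamethasone-treated Cd163-/- macrophages (red, left) and wild-type macrophages (blue, right); marker shapes are replicate numbers and bars are group means (n = 2 each). Nr3c1, Sgk1 and Dusp1 lie lower in both Cd163-/- libraries, and the other 7 genes lie higher.

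Nr3c1 had 88.4 and 93.8 CPM in Cd163-/- macrophages, against 204 and 253 CPM in wild-type macrophages. Both Cd163-/- libraries were below 0.5 of the lower wild-type library, with a fold of 0.399 (log2 -1.33, SE 0.15, edgeR adjusted p = 0.00353). The call missed the threshold only without Cd163-/- replicate 1 (log2 -1.28, adjusted p = 0.0547), among 14 alternatives. Hsd11b1 was near the floor, with 5 and 5 counts in Cd163-/- libraries and 1 and 2 counts in wild-type libraries. The ratio of the summed counts per scaled depth was 2.85, with an exact 95% interval of 0.733 to 16.1 that covers counting error only. It gives no direction at this depth.

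Tsc22d3 had 262 and 278 CPM in Cd163-/- macrophages, against 112 and 110.1 CPM in wild-type macrophages. The replicates lay close together in both groups, and the log2 fold change was 1.28 (SE 0.12, fold 2.43, edgeR adjusted p = 0.00199). Fkbp5 had 351 and 308 CPM in Cd163-/- macrophages, against 138 and 102 CPM in wild-type macrophages, a log2 fold change of 1.46 (SE 0.18, fold 2.74, adjusted p = 0.00482). Zbtb16 had the largest fold change of the 9, with 13.4 and 16.9 CPM in Cd163-/- cells and 1.37 and 2.67 CPM in wild-type cells, resting on 270 and 304 counts against 23 and 42 counts. Its log2 fold change was 2.91 (SE 0.33, fold 7.53, adjusted p = 0.00364). Tsc22d3 and Zbtb16 were called in all 14 alternatives, and Fkbp5 in all but the run without Cd163-/- replicate 1 (log2 1.36, adjusted p = 0.0547).

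Klf9 had 201 and 206 CPM in Cd163-/- macrophages, against 142 and 153 CPM in wild-type macrophages. Its log2 fold change of 0.47 (SE 0.12, fold 1.38) was called at an edgeR adjusted p = 0.0365. The call was lost without either Cd163-/- replicate (adjusted p = 0.169 and 0.175) and without wild-type replicate 1 (0.0748). Klf15 was scarce, with 39 and 13 counts in Cd163-/- libraries and 5 and 7 counts in wild-type libraries, and its log2 fold change of 1.85 (SE 0.63) was not called (edgeR adjusted p = 0.0793). It was called with no filter on low counts (adjusted p = 0.00555). Per1 had 52.2 and 62.1 CPM in Cd163-/- cells and 48.4 and 45.6 CPM in wild-type cells, and was not called (log2 0.28, SE 0.13, adjusted p = 0.159). It was called under library size alone (log2 0.46, adjusted p = 0.0415), the scaling that also moves all genes upwards.

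Dusp1 and Sgk1 had their highest values in the wild-type libraries. Dusp1 had 210.1 and 166 CPM in Cd163-/- cells, against 267 and 418 CPM in wild-type cells (log2 -0.86, SE 0.24, edgeR adjusted p = 0.0474). Its call was lost without Cd163-/- replicate 1 (adjusted p = 0.144), without Cd163-/- replicate 2 (0.223), without wild-type replicate 2 (log2 -0.51, 0.0722), and under upper-quartile scaling (0.0689) and library size alone (0.0912). Sgk1 had 306 and 252 CPM in Cd163-/- cells, against 469.8 and 361 CPM in wild-type cells, and its log2 fold change of -0.57 (SE 0.19) was not called (edgeR adjusted p = 0.0695). It was called by DESeq2 (adjusted p = 0.0271), with no filter (0.00441) and without wild-type replicate 2 (log2 -0.76, 0.0146). Where a macrophage library was left out, the fit takes the remaining library of that group to vary as the 2 libraries of the other genotype do.

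**Figure D4:**
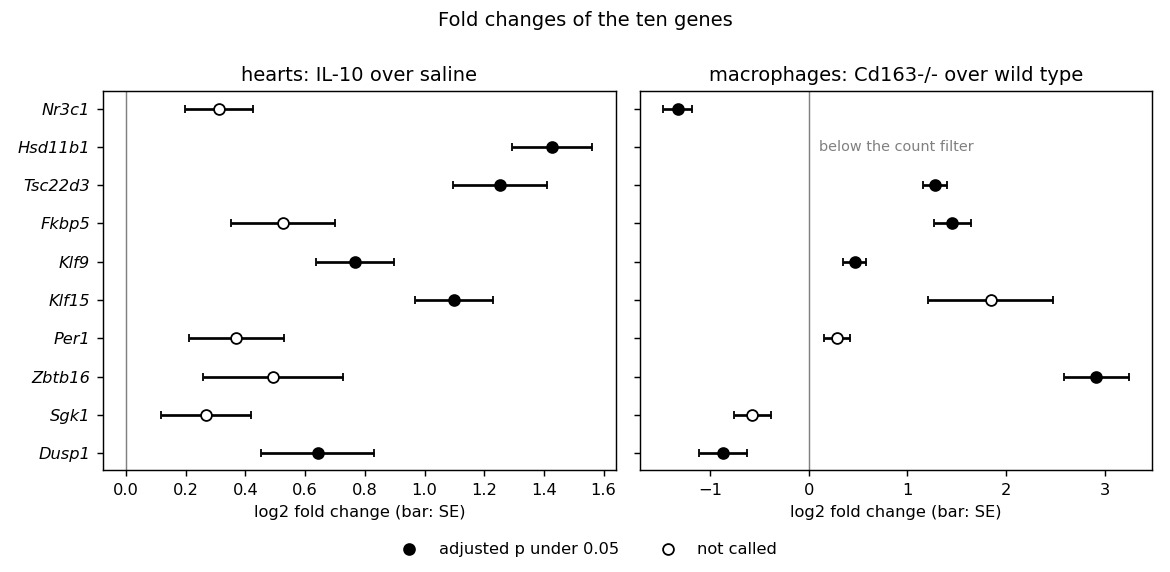
Log2 fold change (horizontal axis, bars are SE) of the 10 genes in hearts (left, IL-10 over saline) and macrophages (right, Cd163-/- over wild type); filled points passed an adjusted p under 0.05 and Hsd11b1 was below the filter in macrophages. The comparisons share no libraries; Tsc22d3 stands at 1.25 and 1.28, while Nr3c1 stands at 0.31 in hearts and -1.33 in macrophages.

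Per kb of exon, Tsc22d3 was the highest of the 10 in Cd163-/- macrophages, at 62.2 ± 2.64 CPM per kb (SD, n = 2), within the range of Sgk1 (56.9 ± 7.86) and Dusp1 (56.9 ± 9.32). Klf9, Fkbp5, Nr3c1 and Per1 followed at 42.3, 34.8, 11.9 and 10.2 CPM per kb without overlap of neighbours, then Zbtb16 at 2.87 and Klf15 at 0.477 CPM per kb. In wild-type macrophages Dusp1 (103.5 ± 32.1 CPM per kb) and Sgk1 (84.8 ± 15.6 CPM per kb) stood first and overlapped, and Tsc22d3 stood lower at 25.6 ± 0.34 CPM per kb, after Klf9 (30.6 ± 1.74) and Nr3c1 (29.7 ± 4.55). Hsd11b1 was last in both groups, at 0.0619 CPM per kb in Cd163-/- cells and 0.0219 CPM per kb in wild-type cells. In the hearts, which were scaled in a separate table, it had 8.89 CPM per kb with IL-10 and 3.29 CPM per kb with saline.

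The other glucocorticoid-induced genes split in the macrophages: of 36 tested, 10 rose and 10 fell in Cd163-/- cells, with a median of 0.19. Fbxo32, a ubiquitin ligase of muscle wasting, had 69.9 ± 3.97 CPM in Cd163-/- cells and 9.17 ± 1.47 CPM in wild-type cells (SD, n = 2 each; log2 2.93, edgeR adjusted p = 0.000516). Arrdc3, an arrestin-like adaptor, had 58.4 ± 2.91 CPM in Cd163-/- cells and 11.8 ± 1.61 CPM in wild-type cells (log2 2.31, adjusted p = 0.000775). Nfkbia, the NF-kappaB inhibitor, which NF-kappaB itself also induces, had 49.5 ± 1.92 CPM in Cd163-/- cells and 510.4 ± 44.4 CPM in wild-type cells (log2 -3.37, adjusted p = 0.000438). The deleted gene Cd163 is on this list too (log2 -4.79, adjusted p = 0.0013). The rises numbered 6 without Cd163-/- replicate 1, and the falls 4 without Cd163-/- replicate 1 and 3 without Cd163-/- replicate 2.

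Of 24 tested glucocorticoid-repressed inflammatory genes 21 fell in Cd163-/- macrophages, with a median log2 fold change of -6.97. Tnf, a central inflammatory cytokine, had 10.8 ± 2.95 CPM in Cd163-/- cells and 2161 ± 409 CPM in wild-type cells (SD, n = 2 each; log2 -7.64, edgeR adjusted p = 0.000438). Cxcl1 had 2.47 ± 0.67 CPM in Cd163-/- cells and 377 ± 76.7 CPM in wild-type cells (log2 -7.26, adjusted p = 0.000399). The monocyte chemokine Ccl2 (35.9 CPM in Cd163-/- and 423 CPM in wild-type cells, log2 -3.56) and the adhesion molecule Icam1 (47.1 CPM in Cd163-/- and 648 CPM in wild-type cells, log2 -3.78) were the other two with the smallest p. None rose (0 by edgeR, DESeq2 and limma-voom, 1 at an unadjusted p under 0.05), though 1 was called higher with library size alone. The falls numbered 19 to 24 when single libraries were left out.

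Of 20 chaperones and coregulators 7 fell and 1 rose in Cd163-/- macrophages, with a median of -0.24. The rise was lost without Cd163-/- replicate 2 and without wild-type replicate 2, and 2 rose under upper-quartile scaling, library size alone or no filter. Those that fell included the Hsp90 cofactors Stip1 (139 CPM in Cd163-/- and 327 CPM in wild-type cells, log2 -1.23) and Ptges3 (-0.58), the corepressor Nrip1 (-1.19) and Dnaja1 (-0.53). Their edgeR adjusted p-values ran from 0.00588 to 0.0321. The 7 became 0 without Cd163-/- replicate 1, 2 without Cd163-/- replicate 2, 3 without wild-type replicate 2, 3 under upper-quartile scaling and 2 under library size alone. Of 7 tested steroid receptors and enzymes 1 rose, where 13.1% of all tested genes did. It was Akr1c14, a steroid reductase (3.38 CPM in Cd163-/- and 0.972 CPM in wild-type cells, log2 1.79, edgeR adjusted p = 0.023), with a list median of 1.06. That count was 0 without either Cd163-/- replicate, 2 without wild-type replicate 2, 3 by DESeq2 and 5 under upper-quartile scaling, library size alone or no filter. None of this list fell (0 by edgeR, DESeq2 and limma-voom, and 0 at an unadjusted p under 0.05).

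Of 16 tested clock genes 6 rose and 2 fell, with a median of 0.55. Dbp and Tef, output genes of the clock, had log2 fold changes of 2.67 and 1.21, the repressor Bhlhe40 0.93 and the clock repressor Cry1 -0.95. The 6 became 2 without Cd163-/- replicate 1 and 3 without Cd163-/- replicate 2, and in both runs the falls numbered 0. The falls numbered 1 under upper-quartile scaling and library size alone, and 4 with no filter. Of 22 tested immediate early genes 3 rose and 6 fell, with a median of -0.17, where 13.1% and 13.3% of all tested genes did. The falls were led by Maff (log2 -2.48), Junb (-1.56), Ier3 (-2.01) and Ier2 (-1.15), and the rises were Klf4 (1.88), Nr4a3 (2.675) and Fos (0.76). The list's summed level was 1478 and 1462 CPM in Cd163-/- macrophages and 2072 and 1984 CPM in wild-type macrophages. Its part in the level of Dusp1 was not tested. The 3 rises became 0 without Cd163-/- replicate 1, 5 under library size alone and 6 with no filter. Of 10 tested Klf and Sp relatives 1 rose and 1 fell, beside 13.1% and 13.3% of all tested genes. These were Klf13 (log2 0.51) and Klf7 (-1.52), with a list median of 0.13. The Klf13 call was lost without either Cd163-/- replicate and without wild-type replicate 2. Of 17 tested Tsc22d, Sgk, Dusp and Fkbp relatives 5 rose and 2 fell, with a median of 0.13. Among them were MAP kinase phosphatases in both directions, with Dusp6 (148 CPM in Cd163-/- and 49.9 CPM in wild-type cells, log2 1.57) and Dusp5 (1.22) higher and Dusp16 (-2.17) and Dusp2 (-2.95) lower. The 5 rises became 1 without Cd163-/- replicate 1 and 2 without Cd163-/- replicate 2, and the 2 falls became 0 without Cd163-/- replicate 1.

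Markers of other cell types moved with genotype beside all of these values. Mesothelial markers summed to 221 to 264 CPM in Cd163-/- cultures and 81.7 to 118 CPM in wild-type cultures, and 4 of 6 rose. Fibroblast markers summed to 2973 to 3417 CPM in Cd163-/- cultures and 1444 to 2212 CPM in wild-type cultures, with 3 of 7 tested higher and 1 lower. Smooth muscle and pericyte markers summed to 411 to 698 CPM in Cd163-/- cultures and 173 to 222 CPM in wild-type cultures. Most of this sum was Acta2, with means of 545 CPM in Cd163-/- and 195 CPM in wild-type cultures. Neutrophil markers summed to 49.6 to 97.9 CPM in Cd163-/- cultures and 166 to 328 CPM in wild-type cultures, with Retnlg at 0 in all. Most of this sum was 1 gene, Csf3r, with means of 71.2 CPM in Cd163-/- and 232 CPM in wild-type cultures. Only 2 of the 6 markers were tested and both fell, the other being S100a8 (2.45 CPM in Cd163-/- and 14.7 CPM in wild-type cultures). Of the 10 macrophage markers 1 rose and 2 fell; Adgre1, which encodes F4/80, had 621 ± 32.8 CPM in Cd163-/- cultures and 1085 ± 189 CPM in wild-type cultures (SD, n = 2 each; log2 -0.80, edgeR adjusted p = 0.0273). Adipocyte markers reached at most 0.0498 CPM in Cd163-/- cultures and 0.0635 CPM in wild-type cultures, with Adipoq, Cidec, Lep and Retn at 0. The part of these cells in the fold changes of the 10 genes was not tested.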

How the data were processed

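Poly(A) RNA of 6 heart and 4 macrophage libraries was counted per gene. The NEBNext Ultra kit used does not mark strand, per the labels' protocols, which name livers as the RNA source where the sample labels give heart or macrophage. Alignment was with HISAT2 2.2.1 per the submitters' processing notes, and the authors made the deposited counts with featureCounts (version not given in the sources used here); raw counts were used as deposited. The notes name both GRCm39 and mm10, so coordinates are those of GENCODE M21 on GRCm38, and 52081 of 55357 gene identifiers were named from it.

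The 2 tables were fitted separately with edgeR 4.0.16 in R 4.3.3: filterByExpr (minimum count 10, minimum total 15), TMM scaling, the quasi-likelihood test without a block, and Benjamini-Hochberg adjustment over all tested genes, called under 0.05. The SE was taken from the fold change and the F statistic (log2 fold change over the root of F). A floor of 3 counts equals 0.192 to 0.22 CPM in a heart and 0.149 to 0.19 CPM in a macrophage library, and mitochondrial genes held 33.7% to 39.4% and 2.43% to 3.12% of counts.

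The 10 genes, the lists and the cell markers were chosen with earlier results of these data known, so no list was tested; counts and medians are given. Up to 4 genes per list are named, those with the smallest p. Genes most like a member were the 3 named genes, no pseudogene, with the smallest difference of centred log2 CPM (prior count 2). The other settings run were scaling by library size alone, by upper quartile or by DESeq2 size factors, a filter of 1 CPM or none, the DESeq2 1.42.0 Wald test, limma-voom (limma 3.58.1), a replicate block, mitochondrial genes left out, and each library left out. On simulated data with 200 changed genes, the fit for hearts (13718 genes) called 84% of changes of 2-fold and 97% of those of 4-fold, with 9 false calls. For macrophages (13861 genes) the shares were 57% and 93%, with 10 false calls. The simulated spread followed a gene's mean level alone, without scatter particular to each gene. Far fewer genes changed than the 1860 called in hearts and 3663 called in macrophages. These shares may therefore not hold for the real libraries. Promoter windows came from RefSeq (GRCm38.p6).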

Additional observations from a re-analysis of the deposited data

How the results depend on the processing

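Hsd11b1, Tsc22d3, Klf9 and Klf15 in hearts and Tsc22d3 and Zbtb16 in macrophages kept their calls under every alternative, and no fold change of the 10 genes changed sign. The cause was not tested for any change that follows. Over all genes, library size alone gave 549 higher and 993 lower in hearts, beside 941 and 919, and 2665 higher and 1220 lower in macrophages, beside 1817 and 1846; upper-quartile scaling gave 2310 and 1403 in macrophages. Leaving out single libraries gave 450 to 1082 higher and 447 to 1012 lower in hearts, with 5 to 6 of the 10 genes higher and 0 lower. In macrophages it gave 360 to 1838 higher and 374 to 1973 lower, with 2 to 4 of the 10 genes higher and 0 to 2 lower; the fewest calls came without Cd163-/- replicate 1. The 2 genes lower in macrophages became 1 under upper-quartile scaling, library size alone and the replicate block. Adgre1, which encodes F4/80, ran from log2 -0.13 without saline replicate 2 to 0.31 without saline replicate 3 in hearts.

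Groups share replicate numbers, and nothing in the labels says that a number marks shared animals or batches. Same-numbered hearts had correlations of their deviations of -0.179, 0.0421 and 0.0034. With 2 libraries a group the macrophages give a single value, -0.113 for same-numbered and 0.113 for crossed pairs. The numbers were therefore not taken as pairs. With the replicate block 772 genes were higher and 751 lower in hearts, with 4 of the 10 genes higher (Dusp1 lost, adjusted p = 0.0634). The block gave 1308 higher and 1348 lower in macrophages, with 3 of the 10 genes higher and 1 lower (Klf9 lost at 0.0791 and Dusp1 at 0.0904). Among the lists, the block gave 2 falls, beside 7, and 0 rises of chaperones and coregulators in macrophages, 1 fall of clock genes, 0 rises of Klf and Sp relatives, and 3 rises of Tsc22d, Sgk, Dusp and Fkbp relatives. In hearts it gave 0 rises of the repressed inflammatory genes, 0 falls of clock genes and 0 rises of Tsc22d, Sgk, Dusp and Fkbp relatives. A crossed pairing of the macrophages, added after seeing the data, gave 2395 higher and 2200 lower, with 5 of the 10 genes higher and 3 lower. Depth limits Hsd11b1 in macrophages, which had at most 5 counts per library and no test.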
